A study of Mus musculus with 6 samples.

Results

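The 10 genes described here encode proteins of the contracting apparatus and the energy supply of skeletal muscle, measured in spontaneous tumors of NT3 mice. They were chosen by name as rows of the gene count table, namely Acta1, Ckm, Myh1, Myh2, Myh4, Mylpf, Tnnt3, Tnnc2, Tnni2 and Mb. All 10 were found among the 23358 entries of the table, and all 10 were among the 16415 that passed the filter on low counts.

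In skeletal muscle, thick filaments of myosin pull on thin filaments of actin. Calcium released into the fiber binds the troponin complex on the thin filament and so switches the pull on. Fast and slow fibers use different genes for many of these proteins, and embryonic and perinatal muscle uses further myosin genes of its own. Creatine kinase and myoglobin supply the fiber with phosphate energy and oxygen, and neither is part of the filaments.

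RNA was sequenced from 6 whole tumors, each from a different female mouse. NT3 is a conditional allele of NF-κB-inducing kinase that lacks the TRAF3 binding domain, and both lines carried it on a C57Bl/6J background before crossing. In Osx-Cre;NT3 mice it was switched on by a Cre under the Osterix promoter, which acts in the bone-forming lineage and like the NT3 allele carries a GFP tag. In FSP1-Cre;NT3 mice it was switched on by a Cre under the S100a4 promoter, which acts mainly in fibroblasts and has been documented in myeloid cells. The Osx-Cre line was of mixed C57Bl/6J and CD1 background and its mice ate doxycycline chow until weaning, whereas the FSP1-Cre line was of FVB/n background, so strain and diet differed along with the Cre. The Osx-Cre;NT3 tumors, numbered 13, 18 and 25 by mouse, all grew on the trunk, with latencies of 150, 168 and 115 days. In FSP1-Cre;NT3 mice, tumor 29 was a trunk tumor with a latency of 72 days, and tumors 27 and 36 were perineal with latencies of 101 and 52 days. All FSP1-Cre;NT3 latencies were shorter than all Osx-Cre;NT3 latencies, so line and latency cannot be told apart. Line and site overlapped in part, since both perineal tumors were FSP1-Cre;NT3 and only tumor 29 was an FSP1-Cre;NT3 tumor of the trunk. Benign muscle, skin and Cre-negative tissue were not analysed here.

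Total counts per tumor ran from 51824408 to 163297772, highest in tumor 18, and levels are given as CPM, the counts of a gene scaled to the library's total after TMM scaling. Every count in the table was even. The floor of 3 counts lay between 0.0184 and 0.0579 CPM. The tumors held keratin and collagen RNA at far higher levels than muscle RNA. The summed level of 6 basal keratinocyte genes ran from 5687 to 14247 CPM, and that of 6 fibroblast genes from 5194 to 15001 CPM. Tumor 36 stood apart in other lists, with 2819 CPM over 8 smooth muscle genes against 263 to 551 CPM in the other tumors, and with 171 CPM over 6 adipocyte genes against 3.02 to 55.7 CPM.

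The sequences upstream of 5 of the genes are shown because members that ran together across the tumors and members that did not are compared below. They are the 250 bases before the RefSeq start on GRCm38.p6, in the direction of the gene. Capitals mark the motifs searched, which were the E-box CAGCTG on both strands (the same letters on either), the TATA box TATAAA on the gene's strand, and the CArG box and the MEF2 box on both strands.
Acta1 (chr8:123894776-123895025, minus strand): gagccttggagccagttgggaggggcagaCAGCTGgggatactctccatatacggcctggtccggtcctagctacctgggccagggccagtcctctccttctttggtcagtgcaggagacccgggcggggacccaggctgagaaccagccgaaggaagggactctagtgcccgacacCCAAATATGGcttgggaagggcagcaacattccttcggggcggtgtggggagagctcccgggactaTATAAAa
Mylpf (chr7:127211358-127211607, plus strand): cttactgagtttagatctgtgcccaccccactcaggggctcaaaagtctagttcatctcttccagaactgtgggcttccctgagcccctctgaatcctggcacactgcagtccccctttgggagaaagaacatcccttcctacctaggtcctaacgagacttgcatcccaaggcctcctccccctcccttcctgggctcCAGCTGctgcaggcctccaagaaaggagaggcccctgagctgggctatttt
Ckm (chr7:19410844-19411093, plus strand): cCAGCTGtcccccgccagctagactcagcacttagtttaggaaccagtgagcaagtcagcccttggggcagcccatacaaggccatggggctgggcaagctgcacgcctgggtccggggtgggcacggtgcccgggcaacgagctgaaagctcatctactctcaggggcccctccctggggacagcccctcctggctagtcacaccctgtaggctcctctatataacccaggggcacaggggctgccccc
Myh1 (chr11:67199852-67200101, plus strand): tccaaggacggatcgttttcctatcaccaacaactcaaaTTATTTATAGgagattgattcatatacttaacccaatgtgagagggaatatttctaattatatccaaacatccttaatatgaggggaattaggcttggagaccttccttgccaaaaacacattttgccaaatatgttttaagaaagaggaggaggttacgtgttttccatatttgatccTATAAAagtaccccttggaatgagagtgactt
Myh4 (chr11:67237562-67237811, plus strand): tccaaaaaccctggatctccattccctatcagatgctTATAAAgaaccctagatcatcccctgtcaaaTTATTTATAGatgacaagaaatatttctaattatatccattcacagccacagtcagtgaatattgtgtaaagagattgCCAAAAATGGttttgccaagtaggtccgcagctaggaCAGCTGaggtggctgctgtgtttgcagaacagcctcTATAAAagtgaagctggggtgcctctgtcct
Acta1 held a CAGCTG that began 221 bases before the start, a CArG box 73 bases before it and a TATAAA 7 bases before it. Mylpf and Ckm each held 1 CAGCTG, at 51 and 249 bases. Myh1 held a MEF2 box at 211 bases and a TATAAA at 32 bases, and no CAGCTG. Myh4 held a TATAAA at 213 bases and another at 31 bases, a MEF2 box at 182 bases, a CArG box at 104 bases and a CAGCTG at 67 bases. Among 32851 RefSeq promoter windows of the same length, CAGCTG was found in 13.0%, TATAAA in 7.59%, the MEF2 box in 2.92% and the CArG box in 1.47%. Windows were held for 8 of the 10 genes, and those of Myh2 and Tnnc2 held none of the 4 motifs. These matches describe letters in the windows only.

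As a group, the 10 genes were expressed at a low level and varied strongly between tumors of the same line. Together they took from 0.00279% of all counts in tumor 27 to 0.0131% in tumor 36. Their summed level was 50.6, 126 and 35.2 CPM in Osx-Cre;NT3 tumors 13, 18 and 25, and 25.4, 125 and 132 CPM in FSP1-Cre;NT3 tumors 27, 29 and 36. Low and high sums thus occurred in both lines. The ratio of the highest to the lowest tumor had a median of 17.8 over the 10 genes and of 2.37 over all genes tested.

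**Figure D1:**
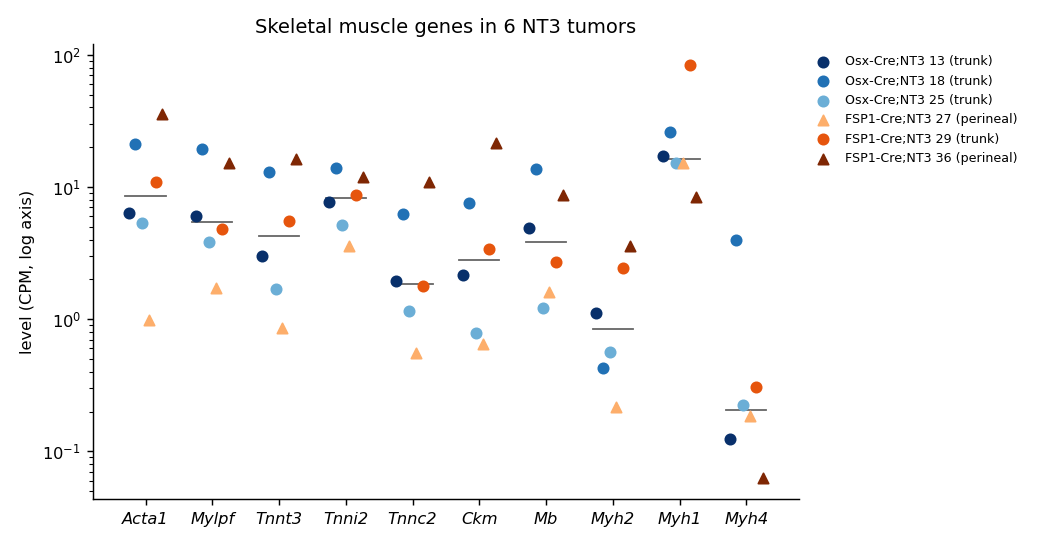
Levels of the 10 genes (CPM, log axis) in each tumor, with circles for trunk and triangles for perineal tumors, blue for Osx-Cre;NT3 and orange to brown for FSP1-Cre;NT3, and a gray line at the median of the 6 tumors. Blue and orange points are mixed for every gene, and Acta1 runs between 0.982 CPM (tumor 27) and 35.8 CPM (tumor 36).

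Acta1 encodes skeletal alpha-actin, the actin of the thin filament. Its level was 6.38, 21.3 and 5.29 CPM in Osx-Cre;NT3 tumors 13, 18 and 25, and 0.982, 10.9 and 35.8 CPM in FSP1-Cre;NT3 tumors 27, 29 and 36. The highest and the lowest tumor were both perineal FSP1-Cre;NT3 tumors and differed 36.4-fold. The line means were 11 ± 8.93 CPM in Osx-Cre;NT3 and 15.9 ± 17.9 CPM in FSP1-Cre;NT3 tumors (SD, n = 3 each).

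The fast troponin genes shared their highest pair of tumors and their lowest tumor. Tnnt3 encodes the fast troponin T, which ties the complex to tropomyosin, and measured 3.02, 12.9 and 1.69 CPM in tumors 13, 18 and 25 and 0.860, 5.54 and 16.4 CPM in tumors 27, 29 and 36. Tnnc2 encodes the fast troponin C, the calcium sensor, and measured 1.95, 6.29 and 1.15 CPM in the Osx-Cre;NT3 tumors and 0.553, 1.77 and 10.8 CPM in the FSP1-Cre;NT3 tumors. Tnni2 encodes the fast troponin I, the inhibitory subunit, and measured 7.74, 13.9 and 5.18 CPM in the Osx-Cre;NT3 tumors and 3.56, 8.70 and 11.9 CPM in the FSP1-Cre;NT3 tumors. Tumors 18 and 36 were the highest pair and tumor 27 the lowest for each of the 3 subunits. The span was narrowest for Tnni2, at 3.91-fold, against 19.0-fold for Tnnt3 and 19.6-fold for Tnnc2.

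Mylpf encodes the regulatory light chain of fast myosin. It measured 6.0, 19.5 and 3.86 CPM in tumors 13, 18 and 25 and 1.72, 4.85 and 15.1 CPM in tumors 27, 29 and 36. Here too tumors 18 and 36 were highest and tumor 27 lowest, an 11.3-fold span.

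Ckm encodes the muscle creatine kinase, and Mb encodes myoglobin, the oxygen store of the fiber. Ckm measured 2.15, 7.53 and 0.789 CPM in the Osx-Cre;NT3 tumors and 0.645, 3.41 and 21.4 CPM in the FSP1-Cre;NT3 tumors. Mb measured 4.93, 13.6 and 1.21 CPM in tumors 13, 18 and 25 and 1.60, 2.69 and 8.66 CPM in tumors 27, 29 and 36. Tumors 18 and 36 were the highest pair for both, but Ckm was highest in tumor 36 and Mb in tumor 18, and the lowest tumor was 27 for Ckm and 25 for Mb.

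The 3 fast myosin heavy chain genes, which encode the motor of the thick filament, did not share this order. Myh1, the gene of the IIX fiber, was the most abundant of the 3 and measured 17.2, 26.1 and 15.2 CPM in the Osx-Cre;NT3 tumors and 15.1, 84.2 and 8.41 CPM in the FSP1-Cre;NT3 tumors. Its highest tumor was 29 and its lowest was 36, the tumor with the most Acta1 and Ckm. Myh2, the gene of the IIA fiber, measured 1.12, 0.429 and 0.563 CPM in tumors 13, 18 and 25 and 0.215, 2.44 and 3.56 CPM in tumors 27, 29 and 36. Tumors 36 and 29 were the highest pair for Myh2, and tumor 18 was its next to lowest.

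Myh4, the gene of the IIB fiber, was near the floor outside tumor 18. Its counts were 6, 616 and 16 in the Osx-Cre;NT3 tumors and 12, 24 and 4 in the FSP1-Cre;NT3 tumors, or 0.124, 4.0, 0.225, 0.184, 0.308 and 0.0625 CPM. If each even count stands for read pairs, the exact 95% Poisson interval was 3.57 to 4.47 CPM in tumor 18 and 0.159 to 0.538 CPM in tumor 29, the next highest. These intervals cover counting error only.

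Of the 10 genes, 7 had tumors 18 and 36 as their highest pair, namely Acta1, Tnnt3, Tnnc2, Tnni2, Mylpf, Ckm and Mb. Of all genes tested, 9.38% had this pair highest. Likewise 7 of the 10 genes were lowest in tumor 27, as were 10.9% of all genes tested. Since the 10 genes are measured in the same libraries, these shares describe 6 tumors and carry no test. In tumor 36 the smooth muscle and adipocyte lists were also at their highest and the basal keratinocyte list at its lowest, while in tumor 18 the smooth muscle list was at its lowest, at 263 CPM. The part of these cell types in the levels of the 10 genes was not tested. In whole tumors, fewer muscle cells and less muscle RNA per cell cannot be told apart.

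**Figure D2:**
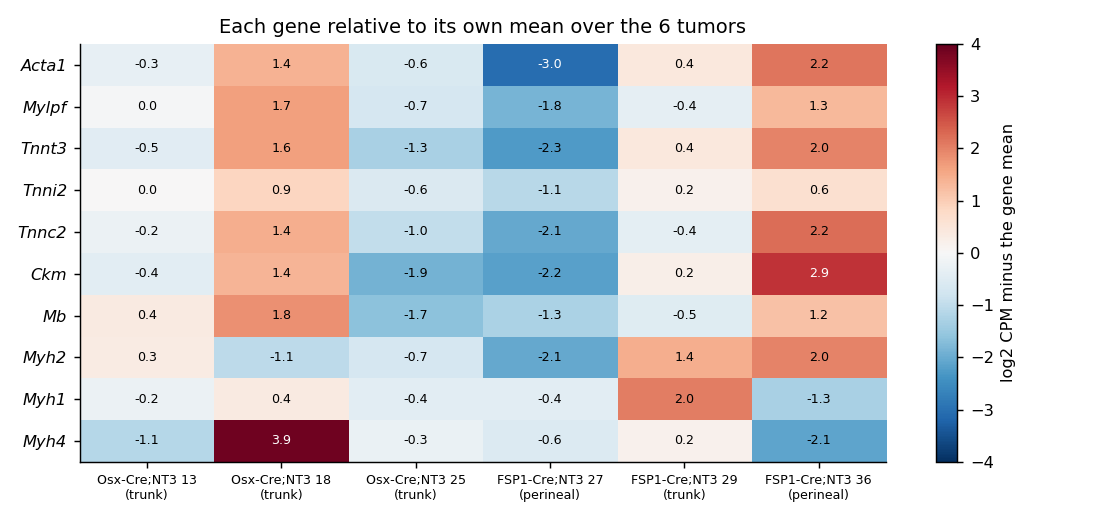
Each gene's log2 CPM minus its own mean over the 6 tumors, in rows, for each tumor, in columns, with red above and blue below the mean. The first 7 rows are red in tumors 18 and 36 and blue in tumors 25 and 27, and the rows of Myh2, Myh1 and Myh4 each have a different order.

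Over the 6 tumors, the 21 pairs among those 7 genes had Pearson correlations of log2 CPM between 0.769 and 0.975, with a median of 0.933. Tnni2 with Tnnt3 was the closest pair and Mb with Acta1 the loosest. Myh1 correlated with the same 7 genes at between -0.20 and 0.14. Myh2 lay between 0.32 and 0.71 and Myh4 between 0.11 and 0.41. The points share their libraries and n is 6, so these values are a description.

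Levels of different genes were compared per length, as the RPKM the authors deposited. In mean RPKM over the 6 tumors the order was Tnni2 at 10.1, Mylpf at 8.82, Acta1 at 7.40, Tnnt3 at 4.72, Tnnc2 at 4.29, Myh1 at 3.67, Mb at 3.40, Ckm at 3.36, Myh2 at 0.182 and Myh4 at 0.104. By RPKM, 8 of the 10 genes ranked above the median of all entries, and Myh2 and Myh4 did not. Each gene differed from its neighbor in this order by less than the SD between tumors of the higher gene. The ratio of Acta1 to Myh1 in RPKM was 1.55, 3.42 and 1.46 for the Osx-Cre;NT3 tumors in the order above, and 0.273, 0.541 and 17.9 for the FSP1-Cre;NT3 tumors. Both FSP1-Cre;NT3 tumors with a ratio below 1 and the tumor with the highest ratio thus belonged to the same line. Myh1 took 67.5% of the counts on the 10 genes in tumor 29 and 6.37% in tumor 36.

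Among the sarcomeric myosin heavy chains, the fast genes made up most of the RNA except in tumor 36. Myh1, Myh2 and Myh4 together were 98.3%, 95.8% and 97.3% of the summed RPKM of Myh1, Myh2, Myh4, Myh7, Myh3 and Myh8 in the Osx-Cre;NT3 tumors, and 92.9%, 99.3% and 39.4% in the FSP1-Cre;NT3 tumors. The mean was 87.2% ± 23.5 (SD, n = 6) and the median 96.6%. In tumor 36 the share of Myh8, the perinatal myosin, was 59.6%, and its level was 18.6 CPM against at most 0.860 CPM in the other tumors. Myh4 reached 12.6% in tumor 18, its largest share. Myh7, the slow myosin, and Myh3, the embryonic myosin, stayed at or below 1.80% in every tumor.

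**Figure D3:**
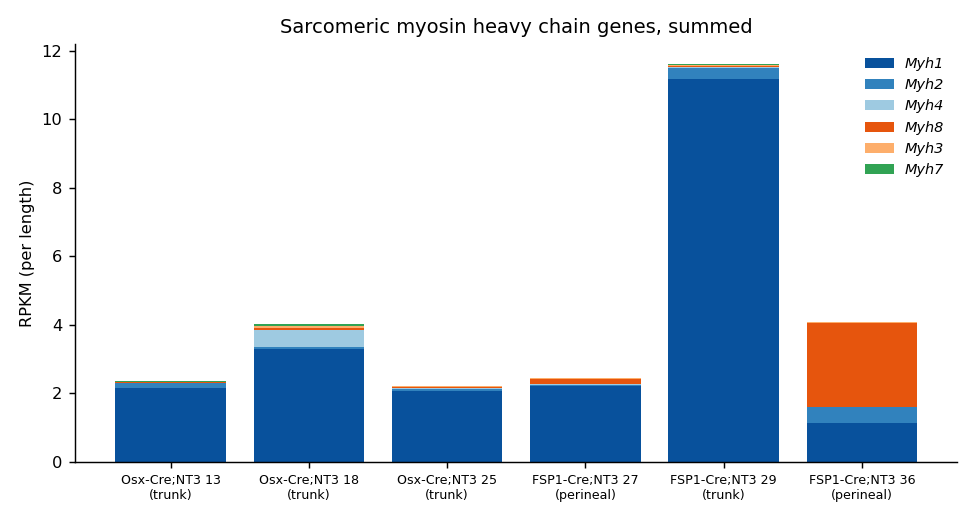
Summed RPKM of 6 sarcomeric myosin heavy chain genes per tumor, with a colored segment for each gene. Myh1 fills most of every bar but that of tumor 36, where Myh8 makes up 59.6%, and the tallest bar, at 11.6 RPKM, is that of tumor 29.

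Set against their slow counterparts, the troponins were also mostly of the fast kind. Tnni2 was 85.4% to 95% of the summed RPKM of Tnni2 and its slow counterpart Tnni1 in 5 tumors and 50.8% in tumor 36, where Tnni1 measured 19.3 CPM against at most 2.26 CPM elsewhere. Tnnt3 was 70.0% to 89.7% of its sum with the slow Tnnt1, lowest in tumor 27. Tnnc2 was 58.4% to 94.6% of its sum with the slow and cardiac Tnnc1, lowest in tumor 27 and highest in tumor 36. In tumor 36 the fast troponin C share was thus at its highest while the fast troponin I share was at its lowest. The cardiac genes Tnnt2 and Tnni3 were left out of these shares. In tumor 27 Tnnt2, at 1.21 RPKM, exceeded Tnnt3, at 0.678 RPKM, while in every other tumor it was below Tnnt3. Tnni3 was below Tnni2 in every tumor, and closest in tumor 27, at 3.42 against 4.72 RPKM.

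Between the lines, none of the 10 genes passed the test. By the quasi-likelihood test of edgeR, adjusted by Benjamini-Hochberg over 16415 genes, 0 of the 10 were called, as were 0% of all genes. At an unadjusted p under 0.05, 0 of the 10 passed against 10.8% of all genes. DESeq2 with the same filter called 420 of the 15461 genes to which it gave an adjusted p, and 0 of the 9 members among them. The values of the lines overlapped for all 10 genes, while 17% of all genes tested did not overlap.

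The fitted log2 fold changes, FSP1-Cre;NT3 minus Osx-Cre;NT3, had a median of 0.42 over the 10 genes and of 0.015 over all genes, and 6 of the 10 were above 0. The largest was that of Myh4, at -2.97 ± 1.40 (SE; edgeR adjusted p = 0.466). Without tumor 18 it was 0.07, so its size rested on that tumor. Myh2 was at 1.57 ± 0.95 (adjusted p = 0.506) and stayed above 0 without any single tumor, between 0.93 and 2.08. Ckm was at 1.27 ± 1.28 (adjusted p = 0.682) and turned to -0.79 without tumor 36. Myh1 was at 0.88 ± 0.82 (adjusted p = 0.657) and turned to -0.77 without tumor 29. The remaining 6 genes lay between -0.61 for Mb and 0.53 for Acta1, with adjusted p-values of at least 0.80. With site as a covariate, Acta1, Ckm, Tnnt3 and Tnnc2 had the opposite sign, at -0.02, -0.04, -0.08 and -0.83. Myh1 moved the other way under that covariate, to 2.11 ± 0.45 (edgeR adjusted p = 0.9998), a value that compares tumor 29 alone with the Osx-Cre;NT3 tumors.

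Between the sites, the 2 perineal tumors were compared with the 4 trunk tumors, and again none of the 10 passed. The test called 0 of the 10 and 0% of all genes. At an unadjusted p under 0.05 it gave 0 of the 10 against 10.2% of all genes. The median log2 difference, perineal minus trunk, was 0.27 over the 10 genes and -0.02 over all genes. Myh1 had the smallest adjusted p of the 10, with a log2 difference of -1.60 ± 0.78 (SE; edgeR adjusted p = 0.537). This value was -0.77 without tumor 29 and -2.84 ± 0.50 with line as a covariate. Without tumor 29, line and site divide the tumors alike, so -0.77 is the same fit as that given between the lines. The value with line as a covariate compares the perineal tumors with tumor 29 alone. The perineal values of Myh1, 15.1 and 8.41 CPM, lay below the trunk values, of which the lowest was 15.2 CPM. Myh1 was the 1 gene of the 10 whose sites did not overlap, against 19.6% of all genes tested. Myh4 was at -3.24 ± 1.71 (adjusted p = 0.554) and Ckm at 1.66 ± 1.19 (adjusted p = 0.613). Without tumor 18 the difference of Myh4 was -0.83. Tumors 27 and 36, both perineal, stood at opposite ends for Acta1, Ckm, Tnnt3, Tnnc2 and Myh2, and without tumor 36 the differences of these genes turned to -3.48, -2.43, -2.75, -2.34 and -2.39.

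**Figure D4:**
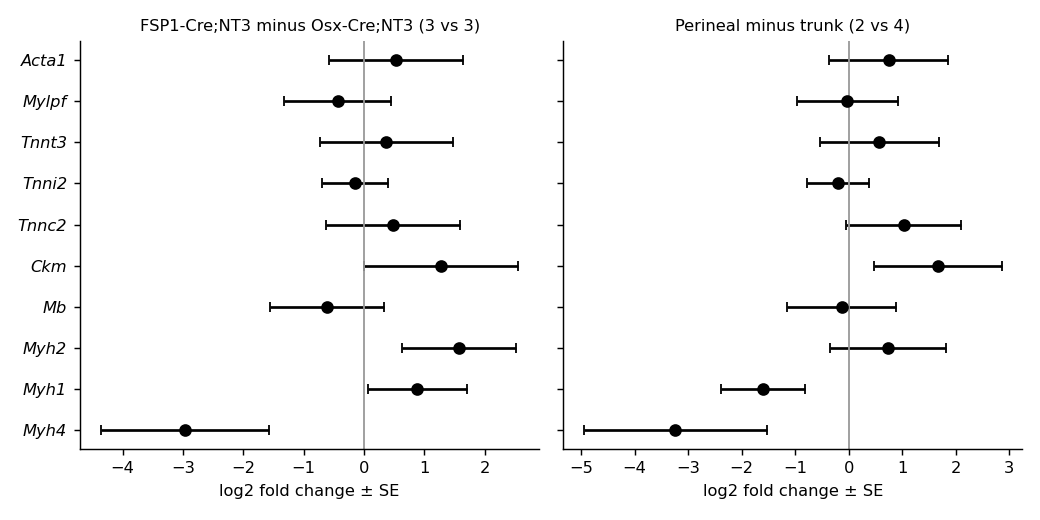
Fitted log2 fold change of each gene with its standard error, on the left for FSP1-Cre;NT3 minus Osx-Cre;NT3 (3 against 3 tumors) and on the right for perineal minus trunk (2 against 4). No gene passed in either panel, and the smallest adjusted p-values were 0.466 for Myh4 on the left and 0.537 for Myh1 on the right.

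The test could miss changes of the size seen here. On simulated counts with the spread of these tumors, it called 25.5% of genes changed 4-fold between the lines, 70.5% of those changed 8-fold and 87.6% of those changed 16-fold. These shares hold for genes as a whole. The genes described here varied more between tumors. Their median ratio of the highest to the lowest tumor was 17.8, against 2.37 over all genes tested, so the shares may be too high for them. The comparison of sites was not simulated. A p that misses the threshold does not show that the lines or the sites had the same level.

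Other muscle genes, in lists given by their role, were set beside the mean profile of the 10 genes over the 6 tumors. Over all genes tested, 2.26% had a correlation of at least 0.8 with it, and 2.94% with the profile of the 8 genes other than Myh1 and Myh4. For the profile of all 10, the share was 2 of 7 for other fast fiber genes, 1 of 7 for slow fiber genes, 4 of 12 for Z-disc and giant proteins, 3 of 10 for calcium and excitation genes, 3 of 10 for muscle energy genes and 1 of 8 for the membrane complex. It was 0 of 5 for developmental isoforms, 0 of 5 for myogenic regulators, 0 of 5 for cardiac genes and 0 of 8 for smooth muscle genes. It was also 0 for each of the keratinocyte, adipocyte, fibroblast, endothelial, Schwann cell and leukocyte lists. With the 8-gene profile the count was 4 of 10 for calcium and excitation genes, 4 of 10 for muscle energy genes and 1 of 5 for cardiac genes, the latter being Tnnt2, and the same as above for the other lists. In no list did a gene pass edgeR's adjusted test between lines or sites, as no gene tested did. At an unadjusted p under 0.05 between sites, 7 of 8 smooth muscle and 6 of 6 adipocyte genes passed, against 10.2% of all genes. Between lines 5 of 8 smooth muscle and 5 of 6 fibroblast genes passed, against 10.8%. Every gene of the smooth muscle and adipocyte lists was highest in tumor 36. The skeletal muscle and cardiac lists held at most 2 such genes each.

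Among the genes that followed the profile was Myl1, the essential light chain of fast myosin, with r = 0.973. It measured 3.11, 11.4 and 1.66 CPM in tumors 13, 18 and 25 and 0.430, 3.21 and 7.25 CPM in tumors 27, 29 and 36, so that tumors 18 and 36 were again highest. Tcap, which encodes the titin cap protein of the Z-disc, had r = 0.990 and ran between 0.215 CPM (tumor 27) and 3.44 CPM (tumor 36). Atp2a1, the calcium pump of fast fibers, had r = 0.886 and ran between 1.63 CPM (tumor 27) and 7.5 CPM (tumor 36).

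Several of the more abundant muscle genes ran the other way. Ttn, the gene of titin, was at 64.2, 54.0 and 206 CPM in the Osx-Cre;NT3 tumors and 125, 210 and 51.7 CPM in the FSP1-Cre;NT3 tumors, lowest in tumors 36 and 18, with r = -0.58. Myom2, an M-band gene, had r = -0.67 and ran between 10.8 CPM (tumor 36) and 59.6 CPM (tumor 25). Ampd1, the muscle AMP deaminase, had r = -0.63. Capn3, the muscle calpain, followed neither direction and ran between 8.0 CPM (tumor 36) and 50.9 CPM (tumor 18), with r = -0.09. Other abundant genes of these lists had a positive r. Tpm1, Tpm2, Fbp2 and Eno3, at mean levels of 332, 125, 47.6 and 18.2 CPM, had r = 0.39, 0.59, 0.73 and 0.70. Genes named for muscle thus did not run as a single block in these tumors.

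**Figure D5:**
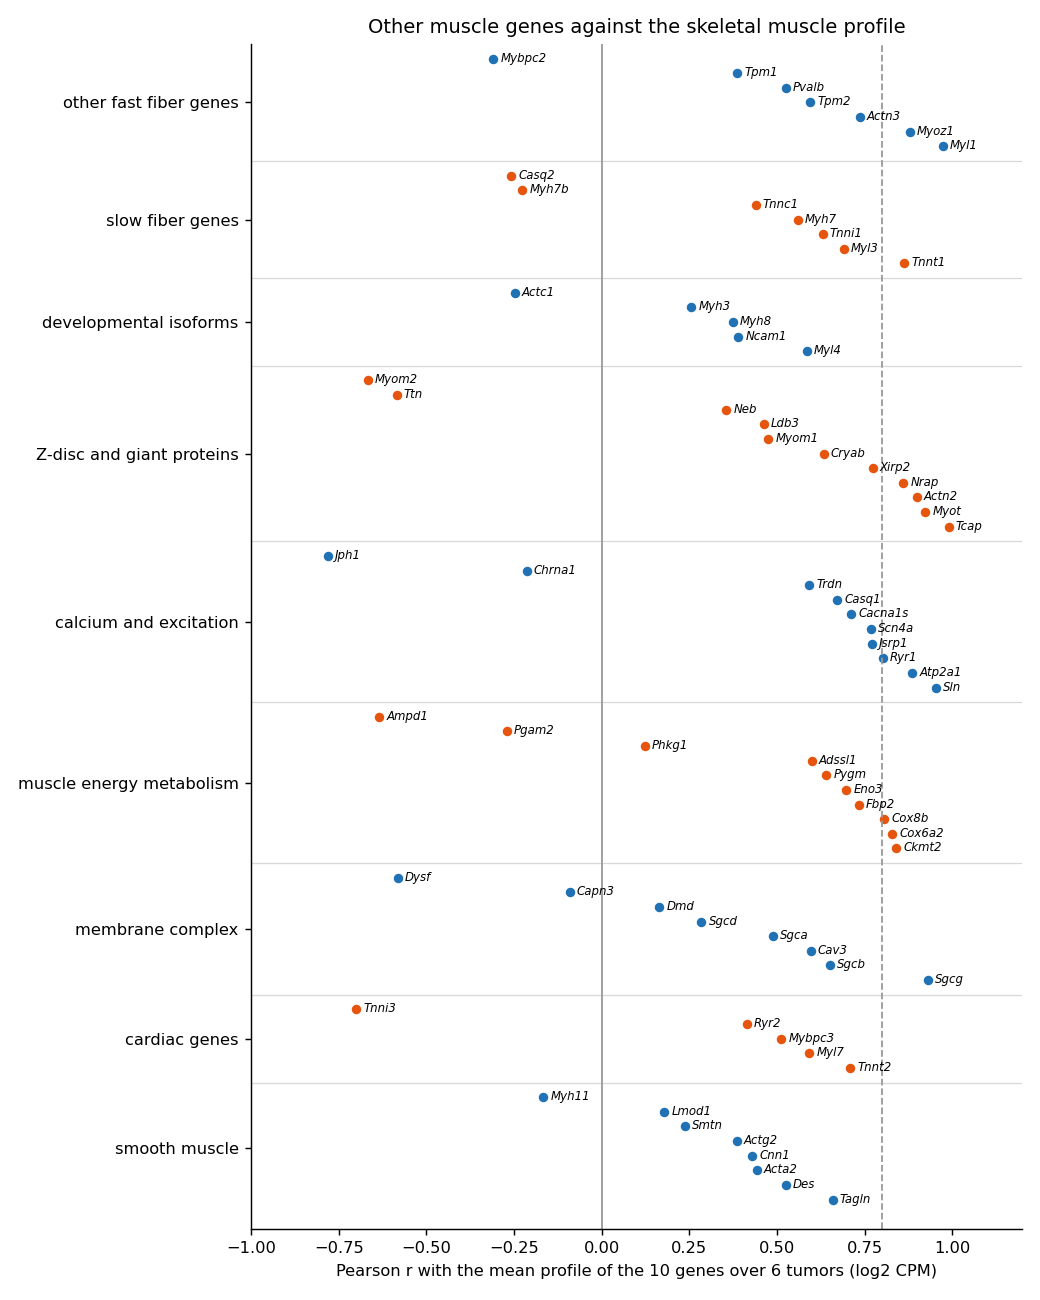
Pearson correlation of other muscle genes with the mean profile of the 10 genes over the 6 tumors, 1 point for each gene shown, with genes grouped by list and a dashed line at 0.8. Tcap and Myl1 lie at the right end, at 0.990 and 0.973, while Jph1, Tnni3, Myom2 and Ampd1 lie on the left.

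The regulators that define muscle precursors were at or near the floor. Myod1 reached at most 0.0563 CPM, Myf5 at most 0.0313 CPM and Pax7 at most 0.0414 CPM in any tumor. Myog, which marks differentiating muscle cells, reached 0.429 CPM in tumor 18 and was at 0 in tumor 13. Of the 10 regulators, 5 passed the filter on low counts. Mef2c, also used outside muscle, was the most abundant and ran from 10.4 to 19.1 CPM. Of the 10 fiber genes described here, 8 were at 0.553 CPM or more in every tumor, and the lowest values of Myh2 and Myh4 were 0.215 and 0.0625 CPM.

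The 10 genes outside the list whose levels ran closest to the mean profile were Scrn3, Tcap, Wnt5b, Skint9, Hebp2, Pglyrp4, Pdp1, Myl1, 9530008L14Rik and Svip, with r from 0.993 down to 0.964 over 6 tumors. Of these, 2 were in the muscle lists, Tcap and Myl1. Scrn3 differed little in level, between 7.43 CPM (tumor 27) and 10.7 CPM (tumor 18), while Hebp2 ran between 2.79 CPM (tumor 27) and 14.1 CPM (tumor 36). Without tumor 36, 3 of these 10 remained among the closest, and without tumor 18, 4 did. For single genes, the closest of all genes tested was Tcap for Tnnt3 (r = 0.997), Trim54 for Acta1 (r = 0.998) and Nol4 for Myh1 (r = 0.999). Nol4 measured 5.21 CPM in tumor 29 and between 2.03 and 3.17 CPM in the other tumors.

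Several of the 10 genes share sequence or ground with others, which bears on how their reads could be assigned. Myh2, Myh1 and Myh4 lie side by side on chromosome 11 with Myh3 and Myh8, in the GENCODE M21 annotation of GRCm38 at chr11:67171027-67197517, chr11:67200052-67224575 and chr11:67238029-67260446. Of the distinct 50-base stretches in their transcripts, 30.5% in Myh1, 28.9% in Myh2 and 18.9% in Myh4 also occurred in transcripts of another gene, mostly of the neighboring myosins. Reads from such stretches could be split among these genes, so the levels of Myh2 and Myh4 beside the higher Myh1 are uncertain. With Myh8 alone, Myh1 shared 9.19%, Myh2 11.9% and Myh4 9.52% of their stretches. In tumor 36, where Myh8 was at 18.6 CPM, the levels of Myh1, Myh2 and Myh4 and the fast share are therefore uncertain too. Tnnc2, at chr2:164777162-164779734 in the deposited table, overlaps Ube2c on the opposite strand, and 55.0% of its 50-base stretches were shared with it. Ube2c, a cell division gene, measured between 22.0 CPM (tumor 27) and 44.4 CPM (tumor 18), above Tnnc2 in every tumor, and correlated with it at r = 0.875. Like Tnnc2, Ube2c had tumors 18 and 36 as its highest pair and tumor 27 as its lowest. The place of Tnnc2 among the 7 genes with that pair, and its correlations with them, carry this limit. Whether reads were counted by strand is not given in the sources used here, so reads of Tnnc2 and Ube2c cannot be told apart where they overlap. In Mb 24.9% of the stretches were shared, most of them with Gm49540 and 1.11% with Apol6, both on the opposite strand. Apol6 measured between 0.366 CPM (tumor 25) and 10.8 CPM (tumor 36), where Mb was at 8.66 CPM. In Ckm 11.5% were shared, with A930016O22Rik on the opposite strand, and in Acta1 2.02%. For Mylpf, Tnnt3 and Tnni2, 0% of the stretches were shared.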

How the data were processed

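RNA from 6 whole tumors was sequenced. The authors deposited 1 table with, for each tumor, gene counts without normalization and RPKM values, scaled by them to gene length and library size. The paper's methods name HISAT2 and featureCounts on mm10, while the submitters' processing notes name TopHat2 2.0.6 and HTSeq, so which of them made the table is not settled. Strandedness is not given in the sources used here. Deposited positions were compared with GENCODE M21 on the same build: of 18591 shared symbols, 71.6% had both ends within 1000 bases.

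Samples were grouped by line and site from their labels. The 10 genes and all lists were chosen with earlier results of these data known. Counts as deposited entered edgeR 4.0.16 (R 4.3.3; filterByExpr by line, TMM, glmQLFit, glmQLFTest, Benjamini-Hochberg over 16415 genes, threshold 0.05), without covariates. The test ran first on simulated counts, with about 200 genes changed. DESeq2 1.42.0, other scalings, filters, covariates and left-out tumors were alternatives. The SE is the log2 fold change divided by the square root of F. Correlations used log2 CPM with a prior count of 2, except that of Ube2c with Tnnc2, which used log2 CPM without a prior count. Named genes were the 10, the up to 5 most abundant of each list, paralogs of the 10 and the genes closest in profile. Myod1, Myf5, Pax7 and Ube2c were chosen after their values were seen. Flg of the keratinocyte list was not analysed here, and 1 gene of the Z-disc list is not reported here by name. Promoter windows came from RefSeq on GRCm38.p6, for all members but Tnnt3 and Tnni2. Each tumor came from a different mouse. Intervals and floors cover counting error only.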

Additional observations from a re-analysis of the deposited data

Results flagged for a closer look

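In groups of 6 tumors, a single tumor was called far from the others when its gap to the nearest value exceeded 0.625 of the whole range. Of 61 sets of values examined, 10 met this, and 6 of them were in tumor 36 and 4 in tumor 18. Chance would give about 3.05 if the sets were independent. The sets share the same tumors and hold related genes, so no excess over chance can be read from this. Of the 10 skeletal muscle genes, 1 was among the sets flagged: Myh4 in tumor 18, at 4.0 CPM against 0.308 CPM in the next tumor.

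In tumor 36, the fast share of the sarcomeric myosin heavy chains was far below the others, at 39.4% against 92.9% in the next tumor. The Tnni2 share of Tnni2 plus Tnni1 was likewise far below, at 50.8% against 85.4%. Myh8 stood far above the other tumors in tumor 36, at 18.6 CPM against 0.860 CPM. Tnni1, the slow troponin I, was at 19.3 CPM there against 2.26 CPM. Ryr2, the cardiac calcium release channel, was at 2.63 CPM against 0.184 CPM. Mybpc2, the fast myosin-binding protein C, was far below the others in tumor 36, at 2.78 CPM against 7.09 CPM.

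In tumor 18, Trdn, which encodes triadin of the calcium release complex, was far above the others, at 30.9 CPM against 1.85 CPM. Myl4, an embryonic and atrial light chain, was at 5.27 CPM against 1.53 CPM. Mybpc3, the cardiac myosin-binding protein C, was at 0.494 CPM against 0.207 CPM.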

How the results depend on the processing

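In every setting run, 0 of the 10 genes were called between lines or sites, DESeq2 included. Over all genes, edgeR called 0 between lines in each setting. DESeq2 with its size factors called 420 of 15461 genes between lines and 561 of 15704 between sites. Chosen after seeing the data, DESeq2 called 452 and 725 on every gene with a count, and between lines 499 without tumor 18 and 196 without tumor 36. Leaving out a tumor gave 0 to 415 genes between sites, with 415 without tumor 27 and 2 without tumor 25. No paired analysis was possible because the groups share no replicate numbers.

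Signs of single genes depended on the setting. Between lines, with site as a covariate, log2 differences were -0.020 (Acta1), -0.039 (Ckm), -0.085 (Tnnt3) and -0.83 (Tnnc2), and in trunk tumors alone -0.030, -0.050, -0.097 and -0.84. Between sites, Mylpf was at 0.034 with library sizes alone and 0.00089 with a minimum of 10 counts per tumor. With line as a covariate Myh2, Mylpf and Mb were at -0.37, 0.79 and 0.93, and in FSP1-Cre;NT3 tumors alone at -0.36, 0.80 and 0.93. The cause was not tested. Where 1 tumor stood alone on a side, it was assumed to vary like the others.

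Leaving out each tumor gave, between lines, ranges of -0.89 to 1.44 (Acta1), -0.79 to 2.52 (Ckm), -0.77 to 1.35 (Myh1), -3.63 to 0.072 (Myh4), -1.57 to 0.54 (Mylpf), -0.88 to 1.68 (Tnnt3), -1.43 to 1.49 (Tnnc2), -0.55 to 0.32 (Tnni2) and -1.62 to 0.49 (Mb). Between sites they were -3.48 to 1.66 (Acta1), -2.43 to 2.57 (Ckm), -2.10 to -0.77 (Myh1), -2.39 to 1.64 (Myh2), -4.27 to -0.83 (Myh4), -2.31 to 0.77 (Mylpf), -2.75 to 1.45 (Tnnt3), -2.34 to 1.90 (Tnnc2), -1.32 to 0.39 (Tnni2) and -1.82 to 0.80 (Mb). The fast share of the myosins had a mean of 84.7% to 96.7%, highest without tumor 36. Myh4 could not be fitted under that minimum, with halved counts or in FSP1-Cre;NT3 tumors alone. Counts of 4 to 24 in 5 tumors limit the values of Myh4.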
